A study of Mus musculus with 9 samples.

Results

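The genes described here build and enlarge cytoplasmic lipid droplets. They are the 3 CIDE genes (Cidea, Cideb and Cidec), the 2 FITM genes (Fitm1 and Fitm2) and Bscl2, the gene of seipin. Members were all probe sets whose platform annotation carries 1 of these 6 symbols, which gave 7 of the 45101 probe sets on the array. Bscl2 had 2 probe sets and every other member had 1. Transcripts were measured on 9 Affymetrix arrays of NIH-CAR cells, a clone of the mouse fibroblast line NIH-3T3 with stable expression of the coxsackie-adenovirus receptor (CARΔ1), which adenovirus needs to enter. All cells were at passage 12 and were exposed to virus for 2 h. The groups, of 3 arrays each, were AdHA-PPARgCDE, an HA-tagged PPARγ that lacks the A/B-domain, with 1 µM rosiglitazone (the deleted receptor), AdHA-PPARg2, the HA-tagged full-length receptor, with 1 µM rosiglitazone, and AdEmpty, virus with no insert, with DMSO vehicle. The cells are a single clone, the receptors come from a viral vector, and no group held a receptor without agonist, so receptor and agonist cannot be told apart against empty vector. The study's title speaks of the role of that domain in gene activation.

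A lipid droplet forms when triglyceride gathers between the leaflets of the endoplasmic reticulum (ER) membrane and buds into the cytoplasm. Seipin sits at the sites where droplets grow from the ER, and FITM proteins are ER membrane proteins that help droplets emerge. CIDE proteins gather at contacts between droplets, where lipid moves from the smaller to the larger one. The nuclear receptor PPARγ drives the making of adipocytes, and rosiglitazone is a synthetic agonist of it. Its A/B-domain lies at the N-terminus and holds an activation function that needs no ligand. In people, loss of seipin or of CIDEC causes lipodystrophy.

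Levels are log2 values as deposited, differences are between group means on that scale, and a probe set was called where limma gave an adjusted p under 0.05 over all 34945 probe sets tested. The design text speaks of individual experiments of this cell line, and p-values of the main fit, which has no block, measure the spread between them. Those of a fit with the array number as a block measure the spread left after differences between the numbers are taken out. Array medians ran from 6.68 to 6.90. The arrays numbered 3 stood apart: their 18S ribosomal RNA control probe sets averaged 8.06 with the deleted receptor, 7.59 with the full-length receptor and 8.67 with empty vector, and those of the other 6 arrays lay between 10.51 and 12.44. Member values without these arrays are given where they bear on a result. Of 11 fibroblast marker genes 9 had at least 1 probe set above the upper quartile of its array on all 9 arrays, among them Col1a1, Col1a2 and Vim. Lum lay below the median of every array. Pparg was at 10.74, 12.01 and 11.26 with the deleted receptor, at 10.70, 12.22 and 10.84 with the full-length receptor, against 7.01, 6.99 and 7.17 with empty vector. Its probe set differed between the deleted and the full-length receptor by 0.09 (SE 0.41, 95% interval from -0.83 to 1.01). Transcript of the virus and of the cell's own gene cannot be told apart in it.

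Cidec and Fitm2 rose with the full-length receptor and its agonist, 5.69-fold and 3.41-fold over empty vector, and in each the deleted receptor gave levels between those of the full-length receptor and empty vector. They were 2 of the 7 member probe sets, and across all probe sets 0.389% were called higher in that comparison. In RNA of whole cultures, more cells with a transcript and more RNA per cell cannot be told apart. Cidea, Cideb, Fitm1 and both probe sets of Bscl2 were called in none of the 3 comparisons.

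Cidec encodes the CIDE protein of white adipocytes, which enlarges droplets by lipid transfer. The level of its probe set (1452260_at) was 5.59, 6.11 and 5.40 with the deleted receptor, 7.92, 8.20 and 6.86 with the full-length receptor, against 5.34, 5.19 and 4.93 with empty vector. The 3 groups did not overlap, and in both receptor groups the array numbered 2 was the highest and the array numbered 3 the lowest. With the full-length receptor Cidec was 2.51 higher than with empty vector on the log2 scale (SE 0.33, adjusted p = 0.0113), a 5.69-fold increase with a 95% interval from 3.43 to 9.44. That was the 17th largest increase among the 34945 probe sets. Without the arrays numbered 3 the difference was 2.80 (adjusted p = 0.00333). The call was lost without any 1 of full-length array 1 (adjusted p = 0.0555), full-length array 2 (0.0519), empty-vector array 2 (0.0649) or empty-vector array 3 (0.0510), with differences from 2.24 to 2.53. On the empty-vector and deleted-receptor arrays Cidec read below the median of its array, as it did on 1 of the 3 full-length arrays. Its empty-vector mean of 5.15 lay between those of the probe sets of Ptprc, a leukocyte gene, at 4.56 and 6.13, and the sources used here give no detection calls. The fold, its rank and the share below are set against that low reading, and the fold may be a lower bound. Cidec overlaps Gm52871, and Fitm2 overlaps 2310001K24Rik, in RefSeq.

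With the deleted receptor Cidec was 0.55 above empty vector (SE 0.33, 95% interval from -0.18 to 1.28, adjusted p = 1.00) and was not called. With the array number as a block the 95% interval ran from 0.03 to 1.07 (unadjusted p = 0.0413, adjusted p = 0.516), and the differences by number were 0.26, 0.93 and 0.47. Without the arrays numbered 3 it was 0.59 (adjusted p = 0.396). Between the receptors, Cidec was lower with the deleted receptor (difference -1.96, SE 0.33, 95% interval from -2.69 to -1.23), which leaves 0.257 of the full-length level on the linear scale. By array number the difference was -2.33, -2.09 and -1.46. Among all probe sets this was the 2nd largest decrease, with the 4th smallest unadjusted p in limma (0.000164). The adjusted p was 1.00, and it was 0.0708 without full-length array 3 and 0.320 without the 3 arrays numbered 3. In the limma fit with the block the SE was 0.22 and the 95% interval ran from -2.48 to -1.44 (unadjusted p = 6.27e-05, adjusted p = 0.313).

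Fitm2 encodes the widely expressed member of the FITM family. Its probe set (1454935_at) was at 8.91, 9.28 and 8.78 with the deleted receptor, at 9.76, 10.06 and 9.59 with the full-length receptor, against 7.86, 8.11 and 8.12 with empty vector. Here too the 3 groups did not overlap. The full-length receptor gave an increase of 1.77 over empty vector (SE 0.17, adjusted p = 0.00291), which is 3.41-fold with a 95% interval from 2.61 to 4.46. The increase was 1.92 without the arrays numbered 3 (adjusted p = 0.00756), and the call held without any 1 of the 9 arrays, with adjusted p from 0.00416 to 0.0202.

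With the deleted receptor Fitm2 was 0.96 above empty vector (SE 0.17, 95% interval from 0.57 to 1.34). This was not called without a block (adjusted p = 0.130), and no member was, where 0.114% of all probe sets were called in either direction. With the array number as a block, Fitm2 was called higher (SE 0.12, adjusted p = 0.0334), the 1 member called, where 0.426% of all probe sets were called higher. Without the arrays numbered 3, and with no block, the difference was 1.11 (adjusted p = 0.0955). Same-numbered arrays of these groups deviated together. Only the fit with the block takes them as pairs, and the main fit, which has no block, does not. Between the receptors Fitm2 was lower with the deleted receptor, at a difference of -0.81 (SE 0.17, 95% interval from -1.20 to -0.43, unadjusted p = 0.000928, adjusted p = 1.00). By array number this difference was -0.86, -0.78 and -0.80, an SD of 0.04, narrower than the SD of the levels within either group (0.26 with the deleted and 0.24 with the full-length receptor). With the block its SE was 0.12 and its adjusted p 0.423.

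**Figure D1:**
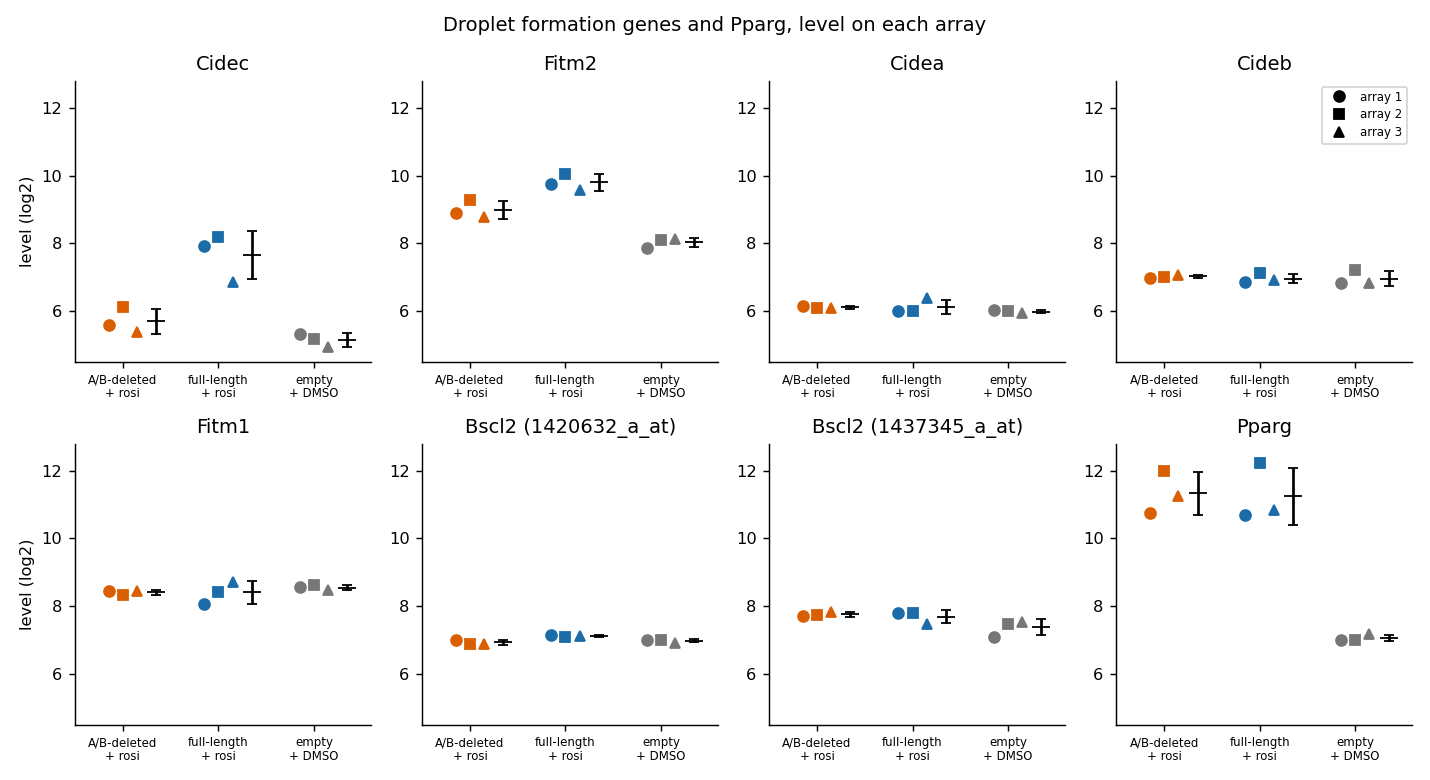
Levels on the log2 scale of the 7 member probe sets and Pparg on each array, with array numbers 1 to 3 as circles, squares and triangles and bars for mean and SD of 3 arrays. For Cidec and Fitm2 the deleted-receptor arrays lie below all full-length and above all empty-vector arrays, and Pparg is at 11.34 with the deleted and 11.25 with the full-length receptor.

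The order full-length above deleted above empty vector, with no overlap between any of the groups, was seen in 2 of the 7 member probe sets and in 0.358% of all probe sets. Between the deleted and the full-length receptor limma called 0 of 34945 probe sets, which is 0%, and 667 had an unadjusted p under 0.05, or 1.91%. Of the 7 member probe sets 2 did, Cidec and Fitm2. Exact permutation tests of these single differences gave p = 0.1, two-sided, the smallest that 3 arrays against 3 allow.

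The share kept by the deleted receptor was its difference from empty vector in percent of the difference given by the full-length receptor, on the log2 scale. Both differences use the same empty-vector arrays. For Cidec it was 21.9%, with a Fieller 95% interval from -8.53% to 47.2%, and 9.88%, 30.8% and 24.3% by array number. For Fitm2 it was 54.1%, with an interval from 35.0% to 73.6%, and 54.8%, 60.2% and 45.0% by array number. Deviations of same-numbered full-length and empty-vector arrays correlated unevenly, at -0.17, 0.59 and 0.20 by number. With the block the SE of the full-length difference of Cidec was 0.22 in place of 0.33. These correlations alone thus do not settle whether the numbers pair these 2 groups, and values by number are given to show spread only. The difference between the shares of both genes was not tested. Without the arrays numbered 3 the shares were 21.1% for Cidec and 57.5% for Fitm2. Over the 97 probe sets, of 69 genes, that were called for full-length receptor against empty vector with a difference of 1 log2 unit or more, the median share was 74.5%, with quartiles at 62.2% and 89.5%. These 97, with Cidec and Fitm2 among them, were picked by a high full-length difference, which is the denominator of the share, so they are no neutral background. As a description, Cidec had the 2nd lowest share of these, above that of Adamts4 (21.0%), a protease gene named after its value was seen, and 19 of the 97 were at or below Fitm2. On the linear scale, as a ratio of fold increases above 1, the shares were 9.89% for Cidec and 39.1% for Fitm2.

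**Figure D2:**
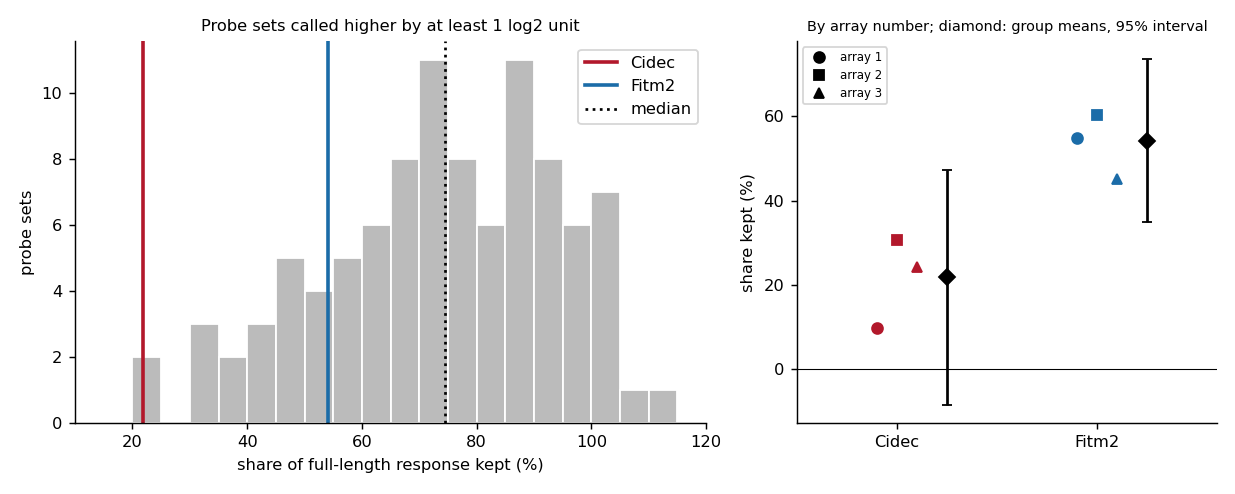
Left, number of probe sets by the share that the deleted receptor kept, in percent, over the 97 probe sets called with a difference of 1 log2 unit or more for full-length receptor against empty vector. Right, shares of Cidec and Fitm2 by array number (circle, square and triangle for 1, 2 and 3) and from group means with Fieller 95% intervals (diamonds). Cidec, at 21.9%, lies at the low end and Fitm2, at 54.1%, below the median of 74.5%.

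Promoter windows of both genes that rose, and of Fitm1 as the relative of Fitm2 that was not called, were taken from RefSeq (GRCm38.p6) as the 250 bases before each annotated start, 5′ to 3′ on the gene's strand. PPARγ binds DNA with RXR at the DR1 element, the hexamer AGGTCA repeated after a spacer of 1 base. Capitals mark the stretch with the fewest mismatches to the 12 fixed bases of that element on either strand, the first one found where several were equal. The windows lie on the minus strand at chr6:113435761-113436010 and chr6:113434765-113435014 for the 2 starts of Cidec, on the minus strand at chr2:163472630-163472879 for Fitm2 and on the plus strand at chr14:55575424-55575673 for Fitm1.
Cidec, first start: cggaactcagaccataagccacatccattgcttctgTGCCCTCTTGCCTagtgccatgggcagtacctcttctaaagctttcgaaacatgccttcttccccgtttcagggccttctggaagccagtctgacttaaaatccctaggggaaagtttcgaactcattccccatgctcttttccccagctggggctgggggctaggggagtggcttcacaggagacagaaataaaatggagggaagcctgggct
Cidec, second start: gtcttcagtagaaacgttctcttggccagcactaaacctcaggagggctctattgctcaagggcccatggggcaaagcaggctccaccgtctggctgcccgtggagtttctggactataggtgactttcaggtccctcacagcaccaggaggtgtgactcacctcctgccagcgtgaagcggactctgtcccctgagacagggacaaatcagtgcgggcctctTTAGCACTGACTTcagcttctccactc
Fitm2: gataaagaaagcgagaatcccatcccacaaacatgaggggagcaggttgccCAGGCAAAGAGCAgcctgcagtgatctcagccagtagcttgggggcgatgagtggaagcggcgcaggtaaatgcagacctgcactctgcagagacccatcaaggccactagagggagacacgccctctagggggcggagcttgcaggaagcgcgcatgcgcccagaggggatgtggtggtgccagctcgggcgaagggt
Fitm1: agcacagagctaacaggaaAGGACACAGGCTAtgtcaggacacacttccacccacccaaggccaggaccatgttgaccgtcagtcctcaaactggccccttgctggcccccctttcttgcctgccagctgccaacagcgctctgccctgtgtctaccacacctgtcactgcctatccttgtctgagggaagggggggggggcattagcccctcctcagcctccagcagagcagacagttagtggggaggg

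The marked stretch had 3 mismatches at the first Cidec start, 4 at the second, 5 at Fitm2 and 3 at Fitm1. In the Fitm2 window 8 stretches were equal at 5 mismatches, and only the first found is marked. Of 32851 such windows of RefSeq starts, 21.3% held a stretch with 3 or fewer mismatches, 74.5% with 4 or fewer and 99.6% with 5 or fewer, and 0.0335% held an exact match. The exact hexamer AGGTCA or its complement was in none of these 4 windows, and in 14.0% of all. A window of Bscl2 at chr19:8839078-8839327, not printed here, held it, though Bscl2 was not called. The other windows of Bscl2 and that of Cideb did not hold it. Cidea was left out of this comparison of windows. These matches describe the letters of these windows and say nothing of binding further away.

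The other CIDE genes were not called in any comparison. Cidea (1417956_at), the CIDE gene of brown adipocytes, was at 6.16, 6.08 and 6.09 with the deleted receptor, 6.01, 5.99 and 6.38 with the full-length receptor, against 6.02, 5.99 and 5.94 with empty vector. All 9 values lay below the median of their array. Its full-length difference of 0.14 (95% interval from -0.14 to 0.43) rested on full-length array 3, the highest of the 9, and was -0.004 without the arrays numbered 3. The 3 deleted-receptor arrays lay above the 3 empty-vector arrays, by 0.13 on average (95% interval from -0.16 to 0.41). Cideb, a CIDE gene of hepatocytes that acts in lipoprotein assembly, was at 6.99, 7.00 and 7.08 with the deleted receptor, 6.85, 7.12 and 6.92 with the full-length receptor, against 6.82, 7.21 and 6.84 with empty vector. These groups overlapped in all 3 comparisons, and the 95% interval of the full-length difference ran from -0.30 to 0.32. The suffix of the Cideb probe set (1418976_s_at) marks probes that can match transcripts of more than 1 gene, and Cideb overlaps Nop9 and Ltb4r2 in RefSeq.

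Fitm1 (1451488_at), the FITM gene of skeletal and heart muscle, was at 8.45, 8.32 and 8.45 with the deleted receptor, 8.07, 8.42 and 8.72 with the full-length receptor, against 8.56, 8.61 and 8.46 with empty vector. The full-length arrays spread over a wider range than, and on both sides of, the arrays of the other groups. Against empty vector the difference was -0.14 with the deleted receptor (95% interval from -0.50 to 0.22) and -0.14 with the full-length receptor (95% interval from -0.50 to 0.22). An increase of the size seen in Fitm2 lies outside both intervals. Without the arrays numbered 3 the differences were -0.21 with the deleted receptor and -0.34 with the full-length receptor, and without full-length array 3 alone the full-length one was -0.30, none of them called. Of 9 skeletal and heart muscle marker genes 5 lay below the array median on all arrays, Actc1, Mb, Myh2, Myog and Tnnt3. Another 1, Acta1, lay above the upper quartile on all arrays. No probe set of the list was called.

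The 2 probe sets of Bscl2, an _a_at type whose probes can match several transcripts of the gene, ordered the groups differently. Probe set 1420632_a_at was at 7.00, 6.89 and 6.89 with the deleted receptor, 7.14, 7.09 and 7.12 with the full-length receptor, against 7.00, 7.01 and 6.92 with empty vector. Its full-length arrays lay above those of both other groups, by 0.19 over the deleted receptor (deleted minus full-length -0.19, 95% interval from -0.41 to 0.04) and by 0.13 over empty vector (95% interval from -0.09 to 0.36). Probe set 1437345_a_at was at 7.70, 7.75 and 7.82 with the deleted receptor, 7.80, 7.81 and 7.46 with the full-length receptor, against 7.10, 7.48 and 7.54 with empty vector. It was 0.38 above empty vector with the deleted receptor (95% interval from 0.04 to 0.72, unadjusted p = 0.0311, adjusted p = 1.00) and 0.31 above it with the full-length receptor (95% interval from -0.03 to 0.65, adjusted p = 0.905). Between the receptors this probe set differed by 0.07 (95% interval from -0.27 to 0.41). Without the arrays numbered 3 it was 0.43 above empty vector with the deleted receptor and 0.51 above it with the full-length receptor, which turned the difference between the receptors to -0.08. Without empty-vector array 1 the values were 0.25 with the deleted receptor and 0.18 with the full-length receptor, and no setting called this probe set. Bscl2 overlaps Gng3 in RefSeq.

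Counted over all members, 3 of the 7 probe sets did not overlap between the deleted and the full-length receptor, all lower with the deleted one, where 5.91% of all probe sets did not overlap in either direction. Against empty vector, 5 of 7 did not overlap with the deleted receptor, 4 higher and 1 lower, beside 8.57% of all probe sets, and 3 of 7 did not with the full-length receptor, all higher, beside 9.34%. The medians of the 7 differences were -0.02 for deleted minus full-length receptor, 0.13 for deleted receptor minus empty vector and 0.14 for full-length receptor minus empty vector. Over all probe sets tested these medians were 0.00, -0.02 and 0.00.

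**Figure D3:**
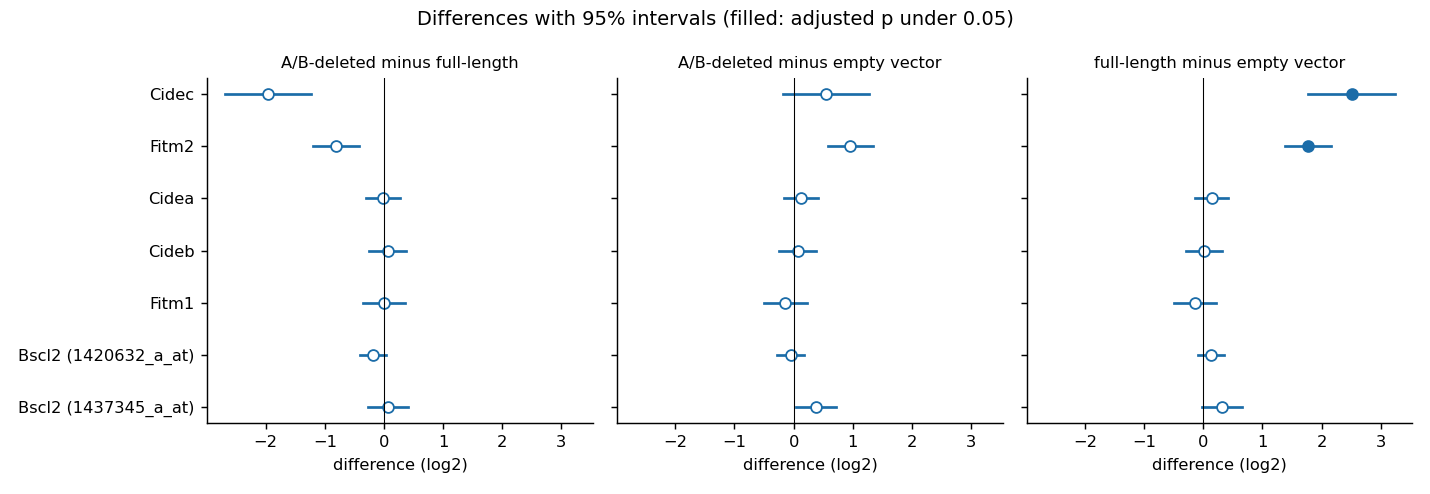
Differences between group means on the log2 scale, with 95% intervals from limma, for the 7 member probe sets in the 3 comparisons. Filled points passed an adjusted p under 0.05, which Cidec and Fitm2 did for full-length receptor minus empty vector at 2.51 and 1.77. The intervals of Cidec and Fitm2 for deleted minus full-length receptor lie below 0 though neither was called.

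Other genes of the droplet were counted by probe set in lists. Of 6 probe sets of droplet coat genes (Plin2, Plin3, Plin4, Plin5 and Hilpda) 1 was called higher with either receptor, that of Plin2, the coat protein found on droplets of most cells. Plin2 was 2.87 above empty vector with the deleted receptor (SE 0.35, adjusted p = 0.0161) and 3.04 above it with the full-length receptor (SE 0.35, adjusted p = 0.00625). Plin2 kept 94.1% of the full-length response. The coat list had 3 of 6 probe sets with an unadjusted p under 0.05, in either direction, for each receptor against empty vector. Beside this stood 6.06% of all probe sets for the full-length and 3.71% for the deleted receptor. Between the receptors 0 of the coat list did. In the list of ER genes that work with seipin and FITM proteins, mostly enzymes of triglyceride synthesis, 0 of 31 probe sets were called by limma in any of the 3 comparisons. At an unadjusted p under 0.05 there were 3 for full-length receptor against empty vector and 0 in either other comparison, where 6.06% of all probe sets passed for full-length receptor against empty vector and 3.71% for deleted receptor against empty vector. The medians were 0.06 with the deleted and 0.02 with the full-length receptor against empty vector. Lipases and their regulators had 0 of 13 probe sets called, with 1 at an unadjusted p under 0.05 for each receptor against empty vector. Other droplet surface proteins had 0 of 31 called, with 1 at an unadjusted p under 0.05 for the full-length receptor. The relatives that share the N-terminal domain of CIDE proteins, the apoptotic nuclease Dffb and its inhibitor Dffa, had 0 of 4 called in limma, 0 of them with an unadjusted p under 0.05, with full-length differences between -0.01 and 0.20. With the array number as a block, 1 probe set each of Dgat2 (0.63, adjusted p = 0.0438), Plin4 (0.88, 0.0271) and Pnpla2 (0.83, 0.0128) was also called higher with the full-length receptor. These calls rest on reading the array numbers as pairs in all groups, which the uneven correlations of full-length and empty-vector arrays do not settle.

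**Figure D4:**
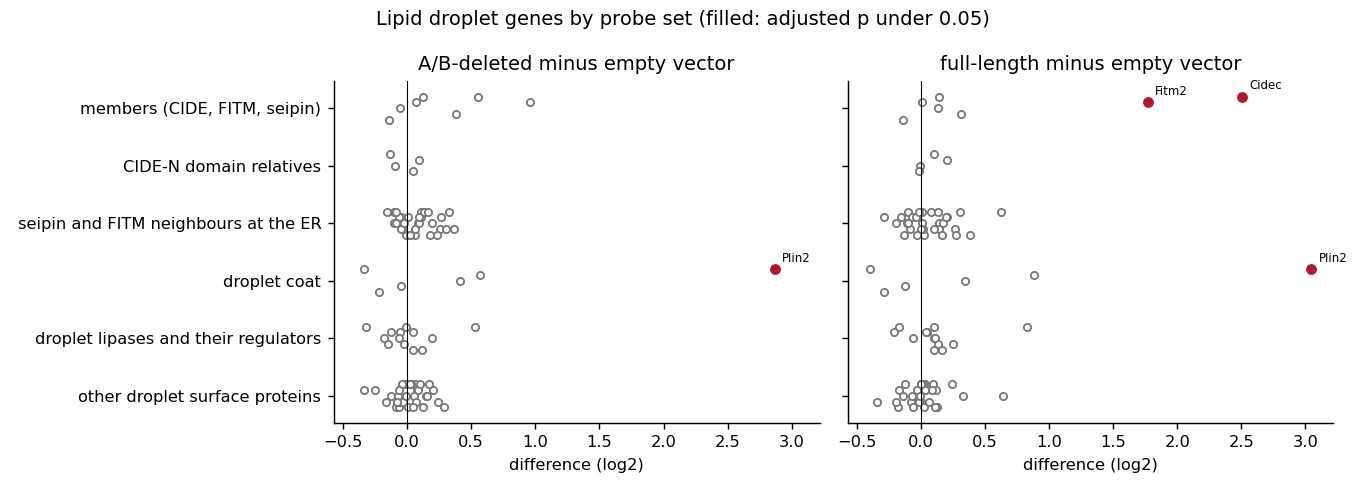
Difference from empty vector on the log2 scale of each probe set of the members and of 5 lists of lipid droplet genes, for the deleted receptor (left) and the full-length receptor (right). Filled points passed an adjusted p under 0.05. Plin2 is filled in both panels, at 2.87 and 3.04, and Cidec and Fitm2 on the right.

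Of 13 genes of a human lipodystrophy list Pparg was called higher with either receptor and Cidec with the full-length receptor. With the block 1 probe set of Cav1, the caveolin gene, was also called, lower with the full-length receptor (-0.65, adjusted p = 0.0147). Among 12 genes known as regulators of CIDE and FITM genes 1 was called, Pparg itself. Pparg is the gene that the virus carries in both receptor groups, so its call in either list is a check of the labels only. Of 6 adipocyte marker genes 1 was called. That gene, Fabp4, which encodes a fatty acid carrier abundant in adipocytes, was called in 3 of its probe sets with the deleted receptor and in 4 with the full-length receptor, and Adipoq, Lep and Cd36 lay below the median of every array. The mean level of the 12 adipocyte marker probe sets ran from 6.90 to 7.56 with the deleted receptor, 7.65 to 7.87 with the full-length receptor and 5.47 to 5.83 with empty vector. That order was carried by the 4 Fabp4 probe sets, with full-length differences of 4.29 to 7.72. The list's median difference from empty vector was 0.01 with the deleted and 0.16 with the full-length receptor, and its part in the differences of Cidec and Fitm2 was not tested. Brown adipocyte, muscle, hepatocyte, leukocyte and fibroblast marker lists held 0 called probe sets in each of the 3 comparisons, and at most 1 probe set per list and comparison had an unadjusted p under 0.05. In the fit with the block 1 fibroblast probe set, of Fn1, was called lower with either receptor.

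The genes most like each called member were found by the root mean square difference over the 9 arrays, after each probe set was centred on its own mean. Fitm2 was followed closely by Tle3, a corepressor gene (0.16), Dab2, an endocytic adaptor gene (0.17), Slc25a30, a mitochondrial carrier gene (0.18), Myo18a (0.19) and Slc18b1 (0.20), where Fitm2 itself varied with a root mean square of 0.75. Of these Slc25a30 kept 39.8% of its full-length response, Myo18a 50.6%, Dab2 69.9%, Tle3 70.6% and Slc18b1 74.2%. For Cidec, with a root mean square of 1.14, the nearest were Pcx, the pyruvate carboxylase gene (0.39), Pim3, a kinase gene (0.45), another probe set of Slc25a30 (0.46), the urea transporter gene Slc14a1 (0.49) and Fitm2 (0.56). Slc14a1 came nearest to the share of Cidec, at 22.9%, though its full-length increase of 1.97 was not called (adjusted p = 0.403).

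**Figure D5:**
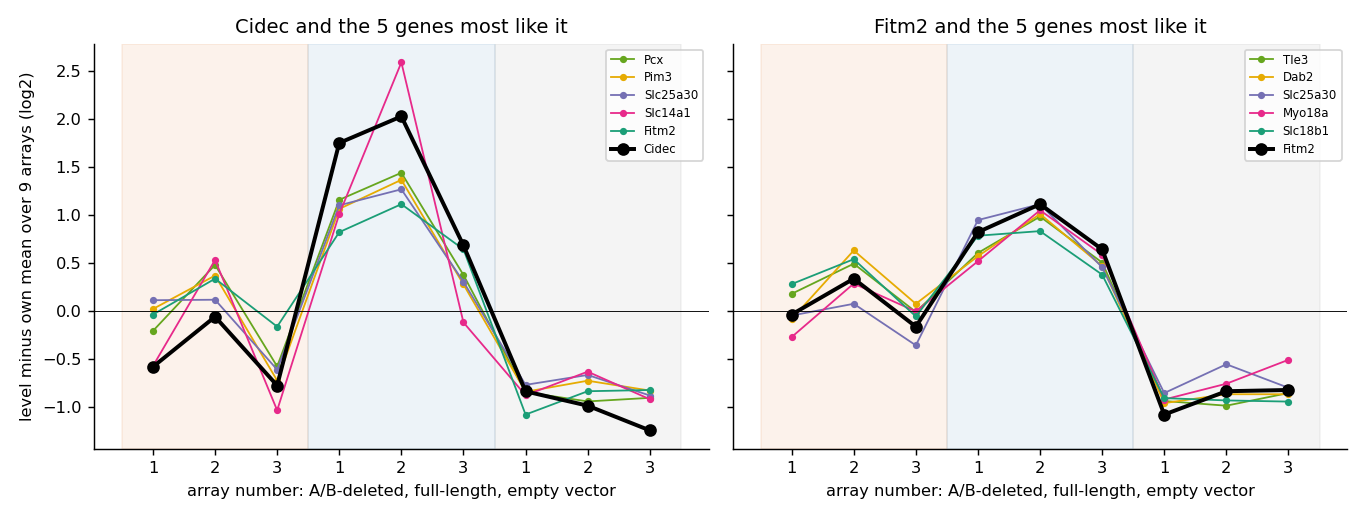
Level minus its own mean over the 9 arrays, on the log2 scale, for Cidec (left) and Fitm2 (right) in black and the 5 genes most like each in colour, by array number within the deleted-receptor, full-length and empty-vector groups (shaded from left to right). Array 2 is the highest of its group in both receptor groups for Cidec and Fitm2, and Slc25a30 appears in both panels.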

How the data were processed

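Total RNA of 9 samples was measured on 1-colour Affymetrix arrays. The authors deposited 1 log2 value per probe set and array. Per the submitters' processing notes, RMA, affy and R 2.5.0 were used. That the values are logarithms to base 2 is read from them: on each array at least 99.858% of the antilogs fell on whole multiples of 0.01 (tolerance 0.01 of the unit). Array medians differed, so the columns are not quantile-equal as plain RMA output would be. No detection calls, dates or genome build are given in the sources used here. Precision is limited by the 9 arrays.

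Values were used as deposited. Symbols are those of the platform annotation, and the 34945 probe sets with exactly 1 symbol that were not controls were tested, all of them because members are defined by probe set. Of 34958 probe sets with 1 symbol, controls included, 34754 were found in the RefSeq gene table (GRCm38.p6), with 0 symbols changed. Differences were tested with limma 3.58.1 in R 4.3.3 (lmFit, eBayes, two-sided, Benjamini-Hochberg) fitted jointly to all 9 arrays, with a mean for each group and without a block. The fit was tested on simulated data. Tables and figures were made with Python 3.11.15, pandas 2.3.3, scipy 1.17.1 and matplotlib 3.10.9.

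Correlations of deviations from group means between same-numbered arrays ran from 0.475 to 0.664 for the deleted receptor and empty vector. They ran from 0.270 to 0.498 for the receptors, and from -0.166 to 0.595 for the full-length receptor and empty vector. Numbers were read as pairs in the first and second of these, through the fit with the block. The uneven correlations of the full-length receptor and empty vector do not by themselves settle that reading, and the main fit has no block in any comparison. Groups and numbers come from the sample titles. Alternatives were the array number as a block, 1 probe set per gene, a filter on dim probe sets, median subtraction, quantile normalization, another variance prior, the compared groups alone, and arrays left out. Named genes were the members, Pparg, the largest called change of each list and the 5 genes most like each called member; the fit with the block and ranks added a few others after their values were seen. Members, lists and tests were chosen with earlier results of these data known. Acsl1 and Plin1 were not analysed here.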

Additional observations from a re-analysis of the deposited data

How the results depend on the processing

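Of 342 values of the 21 member differences under other settings, 317 kept their direction and their side of the threshold, 4 lost a call (Cidec, given above), 1 gained one (Fitm2 with the replicate block, 0.96, adjusted p = 0.0334) and 20 changed sign, none of them called. The sign changes were those of Cideb, full-length minus empty vector (-0.0011 with median subtraction, -0.0036 with quantile normalization, -0.0278 without the arrays numbered 3, -0.0715 to 0.1333 leaving out 1 array), Cideb, deleted minus empty vector (-0.0163 without the arrays numbered 3, -0.0008 to 0.1937 leaving out 1 array), Cidea, full-length minus empty vector (-0.004 without the arrays numbered 3), Cidea, deleted minus full-length (0.0063, 0.0237 and 0.1202 with median subtraction, quantile normalization and without the arrays numbered 3, -0.0843 to 0.1086 leaving out 1 array), Fitm1, full-length minus empty vector (-0.303 to 0.0232), Fitm1, deleted minus full-length (-0.0244 with quantile normalization, -0.1639 to 0.1623), and Bscl2 probe set 1437345_a_at, deleted minus full-length (-0.079 without the arrays numbered 3, -0.0448 to 0.1289).

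Probe sets called for full-length minus empty vector, 184 in all, were 931 with the replicate block, 119 with 1 probe set per gene, 93 with the compared arrays alone, 294 without the arrays numbered 3 and 60 to 170 leaving out 1 array (93 and 60 without full-length array 1 or 2, 78, 62 and 120 without empty-vector array 1, 2 or 3, 121 without deleted-receptor array 1). For deleted minus empty vector, 40 in all, they were 195 with the block, 106 without the arrays numbered 3 and 18 to 51 leaving out 1 array (19 and 18 without deleted-receptor array 1 or 2, 25 and 23 without empty-vector array 1 or 2). For deleted minus full-length the count was 0 under every setting run. Member probe sets called for full-length minus empty vector were 1 without dim probe sets, since Cidec was filtered out, and 1 to 2 leaving out 1 array; for deleted minus empty vector 1 was called with the block. The block changed no other call of a member. The kept share of Cidec was 9.89% as a ratio of linear increases and ran from 13.7% to 28.0% leaving out 1 array, and that of Fitm2 was 39.1% and ran from 45.9% to 60.0%. The causes were not tested.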
